A study of Mus musculus with 6 samples.

Results

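The fibulins are a small family of secreted matrix glycoproteins. Its 7 genes measured here were Fbln1, Fbln2, Fbln5, Fbln7, Efemp1, Efemp2 and Hmcn1, out of 22911 genes that the array's probes could be named for. They were taken as every non-control probe whose transcript accession belongs to one of these genes in RefSeq, which gave 9 probes out of 32994 named ones. Efemp1 and Efemp2 had 2 probes each and the other genes 1. Expression was read on 6 one-colour Agilent arrays of male mouse lung material, 2 arrays per group. Myofibroblasts were sorted as CD49e+ Sca1- Lin- cells from lungs of bleomycin-treated mice, bleomycin being a drug that injures the lung and leads to fibrosis. The steady-state fibroblasts were CD140a+ Lin- cells of untreated lungs. Whole-lung homogenates of untreated mice served as the third group. Sorted sets held 50000 cells and each array received 5.8 ng of Cy3-labelled RNA, while strain, age, and the dose and timing of bleomycin are not given in the labels. The sort gate and the bleomycin treatment changed together, so their shares in a difference between myofibroblasts and fibroblasts cannot be told apart. Nothing in the labels ties the arrays of a group to different mice. All p-values therefore rest on the spread between samples that may be technical repeats.

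Fibulins carry repeated calcium-binding EGF-like modules and end in a fibulin-type module. They sit in elastic fibres, in the microfibrils around them and in basement membranes, where they bind elastin, fibrillin, fibronectin, laminin, nidogen and proteoglycans. In the lung they are known for elastic fibre assembly. Mice without Fbln5 have disorganised elastic fibres and enlarged airspaces, and mice without Efemp2 fail to build elastic fibres and die around birth.

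The gate genes were checked first. Itga5 (CD49e) was 4.01 ± 0.35 higher on the log2 scale in myofibroblasts than in fibroblasts, given with its SE for n = 2 arrays per group (limma adjusted p = 0.00324). Pdgfra (CD140a) was 2.80 ± 0.39 higher in fibroblasts than in homogenate (limma adjusted p = 0.00647). Ly6a (Sca-1) was lower in myofibroblasts than in fibroblasts by -1.94 ± 0.32 (limma adjusted p = 0.0168), yet the signal in this Sca1- population still exceeded background on each array. All 5 general fibroblast markers were well above background on every sorted array. The fibroblast pair was the least alike. More than 2-fold apart were 7.84% of genes in the myofibroblast pair, 23.5% in the fibroblast pair and 2.83% in the homogenate pair, over genes above background on both arrays. All arrays shared 1 slide and 1 scan, on which both homogenates lay in one row and all sorted samples in the other. Effects of slide row and of the homogenate cannot be told apart. No spot was saturated, and the number of arrays limits the precision of every value.

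The family split between the sorted groups. Fbln1, Fbln5 and Efemp1 were 10.5- to 12.2-fold lower in myofibroblasts than in steady-state fibroblasts, while Fbln2 and Efemp2 were 3.56- and 2.95-fold higher. Fbln7 and Hmcn1 did not pass the test. Both directions occurred among genes whose proteins belong to elastic fibres. Values below are signals relative to the 75th percentile of the same array, and since each probe has its own brightness, they are compared between groups and not between genes. All 9 probes were well above background on all 6 arrays, so no member was lost to the filter on dim probes.

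Promoters are shown for 3 of the 5 genes that differed between the sorted groups, because the genes moved in 2 opposite sets. Each line gives the 250 bases before the outermost start in RefSeq's promoter table (GRCm38.p6), 5′ to 3′ on the gene's strand. Fbln1 and Fbln5 were lower in myofibroblasts and Efemp2 was higher. Capitals mark matches on either strand to any of 5 motifs that were searched, none overlapping another here.
Fbln1 (chr15:85205699-85205948, plus strand): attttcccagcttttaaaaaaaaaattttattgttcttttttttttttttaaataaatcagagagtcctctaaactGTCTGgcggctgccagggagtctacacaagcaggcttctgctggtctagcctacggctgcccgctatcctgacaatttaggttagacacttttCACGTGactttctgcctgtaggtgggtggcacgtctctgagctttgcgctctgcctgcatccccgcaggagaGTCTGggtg
Fbln5 (chr12:101819120-101819369, minus strand): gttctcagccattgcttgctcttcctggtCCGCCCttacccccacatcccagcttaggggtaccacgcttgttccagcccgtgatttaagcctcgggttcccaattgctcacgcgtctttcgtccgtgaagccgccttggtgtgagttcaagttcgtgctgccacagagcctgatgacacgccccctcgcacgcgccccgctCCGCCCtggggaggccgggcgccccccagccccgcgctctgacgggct
Efemp2 (chr19:5473696-5473945, plus strand): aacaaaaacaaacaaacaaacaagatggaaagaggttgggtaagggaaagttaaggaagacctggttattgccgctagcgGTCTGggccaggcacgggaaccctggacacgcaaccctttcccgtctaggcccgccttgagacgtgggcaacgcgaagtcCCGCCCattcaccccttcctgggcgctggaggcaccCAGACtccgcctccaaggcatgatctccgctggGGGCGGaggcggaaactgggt
The windows of the other two were searched but are not shown. That of Fbln2 lies with all 250 bases, and that of Efemp1 with 51 bases, inside the span RefSeq gives for the gene. No motif was shared by all genes of either direction other than the GC box letters GGGCGG in the higher pair. GGGCGG was found in Fbln5, Efemp1, Fbln2 and Efemp2, not in Fbln1, and in 32.7% of all 32851 windows of the table. The letters CAGAC, the core of a Smad-binding element, had 2 matches each in Fbln1 and Efemp2, genes of opposite direction, and a match in 42.2% of windows. The E-box CACGTG matched once in Fbln1 (6.02% of windows). The AP-1 element TGANTCA matched once in Efemp1 (6.75% of windows). The TATA box letters TATAAA were in none of the 7 windows and in 12.4% of all windows, and none of the 5 motifs was in the windows of Fbln7 or Hmcn1. Of the 250 bases, 67 in the window of Fbln7 and 217 in that of Hmcn1 lie inside the gene's span. The share of G and C was 46.4% in Fbln1, 65.2% in Fbln5, 53.6% in Efemp1, 58.8% in Fbln2 and 59.2% in Efemp2, against a median of 52.4% over all windows.

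Fbln1 encodes a fibulin that binds fibronectin and nidogen and is found in elastic fibre cores and basement membranes. The gene lies at chr15:85205949-85286294 (GRCm38.p6). Its signal was 5.03 and 7.91 times the 75th percentile in myofibroblasts, against 84.0 and 53.3 times in fibroblasts, and 5.47 and 4.79 times in homogenate. Fibroblasts stood apart on both arrays, and the myofibroblast and homogenate arrays overlapped. The difference between myofibroblasts and fibroblasts was -3.41 ± 0.36 (log2, SE, n = 2 per group, limma adjusted p = 0.00530).

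Fbln5, at chr12:101746565-101819119, encodes the fibulin that binds tropoelastin and cell-surface integrins. It read 0.382 and 0.487 times the 75th percentile in myofibroblasts, against 6.04 and 3.39 times in fibroblasts, and 0.886 and 0.877 times in homogenate. The 3 groups did not overlap, with myofibroblasts lowest and fibroblasts highest. The difference between the sorted groups was -3.39 ± 0.35 (adjusted p = 0.00495), and it was -2.80 with normexp background correction (adjusted p = 0.00499).

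Efemp1, at chr11:28853154-28926743, encodes a fibulin that binds the metalloproteinase inhibitor TIMP3 and is needed for intact elastic fibres of the fascia in mice. Its brighter probe read 3.52 and 3.46 times the 75th percentile in myofibroblasts, against 59.7 and 30.5 times in fibroblasts, and 6.91 and 6.61 times in homogenate. The order of the groups was that of Fbln5, again without overlap. Myofibroblasts were lower than fibroblasts by -3.61 ± 0.37 (adjusted p = 0.00479). The second probe read 2.90 and 4.14 times in myofibroblasts, against 44.0 and 27.3 times in fibroblasts, and 6.10 and 5.73 times in homogenate. In a fit with every probe as a feature it gave -3.32 ± 0.35 (limma adjusted p = 0.00579, with 15.7% of all probes called), close to the brighter probe in the same fit (-3.61, adjusted p = 0.00563).

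Fbln2 and Efemp2 went the other way. Fbln2, at chr6:91212460-91272540, encodes a large fibulin of basement membranes and vessel walls that binds fibronectin, nidogen and versican. It read 17.1 and 21.4 times the 75th percentile in myofibroblasts, against 7.53 and 3.84 times in fibroblasts, and 0.491 and 0.316 times in homogenate. The 3 groups did not overlap, and both sorted groups stood far above homogenate. The difference between myofibroblasts and fibroblasts was 1.83 ± 0.43 (adjusted p = 0.0415). The call ended when any array except fibroblast replicate 1 was left out (adjusted p from 0.0585 to 0.171), though the difference stayed between 1.34 and 1.99 there.

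Efemp2, at chr19:5473946-5482520, encodes the fibulin that brings the cross-linking enzyme lysyl oxidase to elastin. Its brighter probe read 8.04 and 9.52 times the 75th percentile in myofibroblasts, against 2.16 and 4.07 times in fibroblasts, and 1.01 and 0.776 times in homogenate. Myofibroblasts were highest and homogenate lowest, with no overlap. The difference between the sorted groups was 1.56 ± 0.38 (adjusted p = 0.0462), a call at the edge of the threshold. It ended when any array other than fibroblast replicate 2 was left out (adjusted p from 0.0680 to 0.182, differences of 1.10 to 1.68), and with the mean of both probes, at 2.19 (adjusted p = 0.0631).

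The second probe of Efemp2, designed to a different RefSeq transcript of the gene, was less even. It read 2.05 and 2.30 times the 75th percentile in myofibroblasts, against 0.106 and 0.904 times in fibroblasts, and 0.226 and 0.300 times in homogenate. The fibroblast arrays thus lay 8.51-fold apart on this probe and 1.88-fold apart on the brighter one. Its difference between the sorted groups was 2.81 ± 0.97 and did not pass (adjusted p = 0.103 in the fit of all probes, where the brighter probe had 0.0511).

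Fbln7 and Hmcn1 showed no difference between the sorted groups that passed the test. Fbln7, at chr2:128863865-128897034, encodes a short fibulin that supports cell adhesion and was described in developing teeth. It read 0.896 and 0.553 times the 75th percentile in myofibroblasts, against 0.878 and 1.19 times in fibroblasts, and 0.189 and 0.194 times in homogenate. The sorted groups overlapped, with a difference of -0.54 and a 95% interval from -1.37 to 0.30 (adjusted p = 0.296). Hmcn1, at chr1:150562500-150993652, encodes hemicentin, a very large matrix protein with many immunoglobulin modules ahead of its fibulin-like end. It read 0.462 and 0.637 times in myofibroblasts, against 0.514 and 0.379 times in fibroblasts, and 0.390 and 0.224 times in homogenate. Arrays of the sorted groups overlapped. Its difference between the sorted groups was 0.30, with a 95% interval from -0.65 to 1.25 (adjusted p = 0.605), so neither direction is settled. The constants of the authors' deposited table shift the genes by a common amount, with a median of all genes of -0.47 there against -0.06 here, and this alone puts Hmcn1 at -0.11 in that table.

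**Figure D1:**
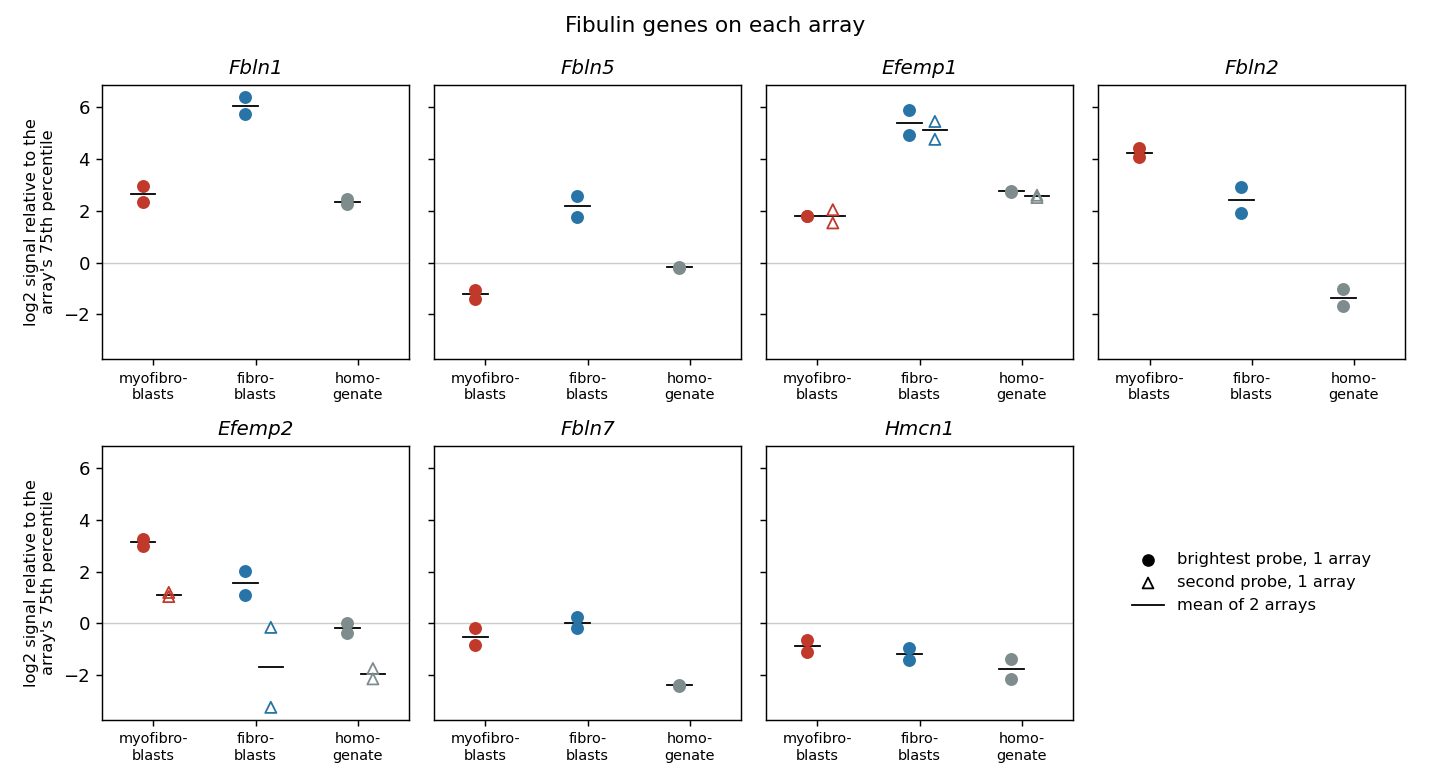
Log2 signal of each fibulin gene relative to the array's 75th percentile (y axis) on the 2 arrays of each group (x axis), with filled circles for the brightest probe, open triangles for a second probe and bars for the mean of 2 arrays. Fbln1, Fbln5 and Efemp1 peak in fibroblasts, Fbln2 and Efemp2 in myofibroblasts, and the second Efemp2 probe is 8.51-fold apart between the fibroblast arrays.

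Between myofibroblasts and fibroblasts, 3 of the 7 fibulin genes were thus called lower and 2 higher at a limma adjusted p under 0.05. Among all 16005 genes tested, 17.2% were called, 8.02% lower and 9.22% higher. The arrays of the groups did not overlap for 5 of the 7 genes, against 63.1% of all genes tested. The median difference was -0.54 over the fibulins and -0.06 over all genes, a median that says little where members move both ways.

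Set against homogenate, steady-state fibroblasts had more of every fibulin transcript except Hmcn1, for which the test did not pass. In bulk samples, fewer cells of a type and less RNA per cell cannot be told apart, whichever gene is read in homogenate. Of the 7 genes, 6 were called higher and 0 lower in fibroblasts, where 8.09% of 17062 tested genes were called higher and 19.9% in either direction. The arrays did not overlap for 6 of the 7, against 62.8% of all genes. Fbln2 was higher by 3.77 ± 0.43 (limma adjusted p = 0.00314), Fbln1 by 3.71 ± 0.36 (adjusted p = 0.00194) and Efemp1 by 2.66 ± 0.37 (adjusted p = 0.00628). Fbln7 followed at 2.42 ± 0.34, Fbln5 at 2.36 ± 0.35 and Efemp2 at 1.74 ± 0.38 (adjusted p = 0.00624, 0.00818 and 0.0285). The second probe of Efemp2 gave 0.25 ± 0.97 (adjusted p = 0.891), with overlapping arrays, where 18.0% of probes were called. With normexp background correction Fbln2 and Fbln7 read 3.03 and 1.62, still called. Hmcn1 read 0.58 with a 95% interval from -0.37 to 1.53 (adjusted p = 0.358). The calls of Fbln5 and Fbln7 ended without either homogenate array (adjusted p up to 0.0657 and 0.0549), and that of Efemp1 without homogenate replicate 2 (0.0545). The call of Efemp2 ended when any homogenate or myofibroblast array was left out (up to 0.184), with the 4 arrays of the compared groups alone (0.0561) and, at a difference of 1, with the mean of both probes (0.334). The calls of Fbln1 and Fbln2 held in every setting tried, and the count fell to 3 and 2 of the 7 without homogenate replicate 1 and 2.

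Set against homogenate, myofibroblasts had more Fbln2, Efemp2 and Fbln7. The homogenates were of untreated mice, so the shares of sorting and of bleomycin cannot be told apart here either. Fbln2 was higher by 5.60 ± 0.43, or 48.5-fold (limma adjusted p = 0.000756), Efemp2 by 3.30 ± 0.38 (adjusted p = 0.00292) and Fbln7 by 1.88 ± 0.34 (adjusted p = 0.0129). With normexp background correction Fbln2 read 4.80 and Fbln7 1.23 (adjusted p = 0.000656 and 0.0141). These were 3 genes called higher and 0 lower, where 11.9% of 17162 tested genes were called higher, 15.0% lower and 26.9% in either direction. The arrays did not overlap for 6 of the 7, against 77.5% of all genes. The second probe of Efemp2 gave 3.06 ± 0.97 and did not pass (adjusted p = 0.0724), where 24.5% of probes were called. The call of Fbln7 ended without myofibroblast replicate 1 or either homogenate array (adjusted p up to 0.0914). Fbln1, high in fibroblasts, differed from homogenate by 0.30 with a 95% interval from -0.60 to 1.21 (adjusted p = 0.568), and its sign turned with quantile normalization, in the authors' deposited table and without myofibroblast replicate 2. Fbln5 at -1.03 ± 0.35 and Efemp1 at -0.95 ± 0.37 were below homogenate on every array but did not pass (adjusted p = 0.0839 and 0.112). Both passed without either fibroblast array (adjusted p from 0.0164 to 0.0239), which bear on this comparison only through the shared spread, and the count was then 5 of the 7. Hmcn1 read 0.88 (adjusted p = 0.145). This comparison shares its myofibroblast arrays with the first and its homogenate arrays with the second, so the values of the 3 comparisons are not independent.

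**Figure D2:**
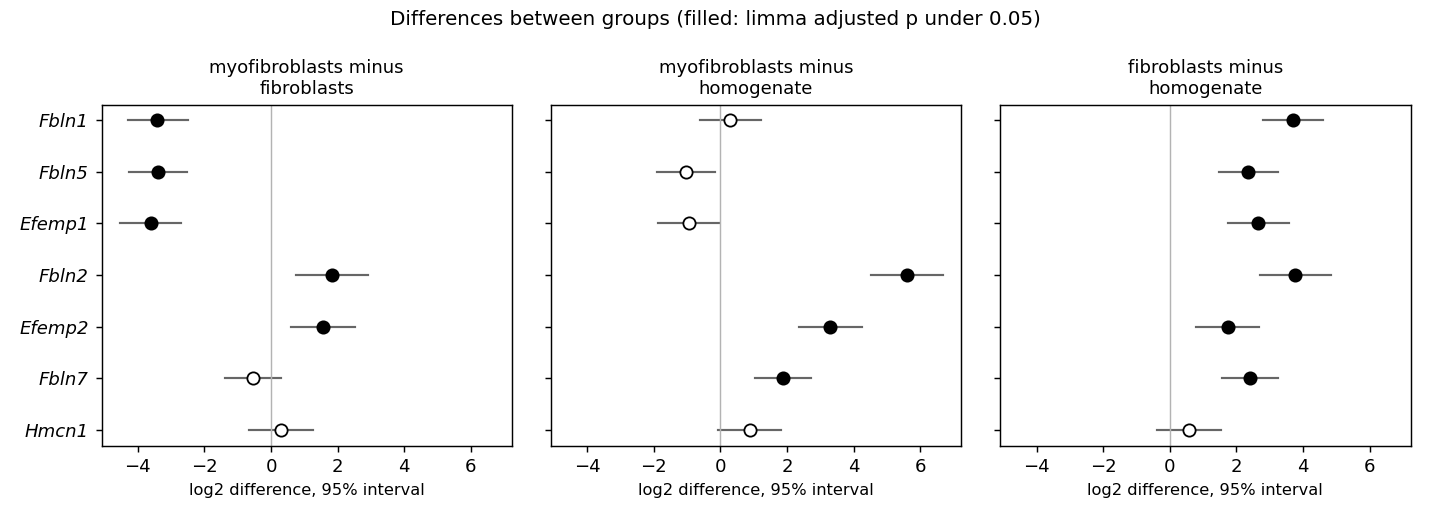
Log2 difference of each fibulin gene (x axis, points) with its 95% interval (lines) in the 3 comparisons, filled where the limma adjusted p was under 0.05. Fbln1, Fbln5 and Efemp1 lie from -3.61 to -3.39 between the sorted groups, and Fbln2 reaches 5.60 between myofibroblasts and homogenate.

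Across the 6 arrays the profiles of Fbln5 and Efemp1 were nearly the same. With each gene centred on its own mean log2 value, the root mean square difference between the pair was 0.17, against 0.59 for Fbln1 and Efemp1, 1.16 for Fbln2 and Efemp2, and 2.87 for Fbln2 and Efemp1, the most unlike pair. Efemp2 lay nearer to Fbln7 (0.93) and Hmcn1 (1.07), neither called between the sorted groups, than to Fbln2. The comparison took in 15852 other genes that exceeded background on each array of 1 or more groups and had a value on all 6 arrays, with predicted genes and clones (Gm and Rik names) left out. Efemp1 was the third nearest to Fbln5, after Pid1 (0.124) and Qpct (0.168), and Fbln5 was the second nearest to Efemp1, after Pid1 (0.154) and before Pcsk6 (0.179). Fbln1 was nearest to Gdf10, which encodes a TGF-beta family ligand (0.156), and then to Dpyd (0.252). Fbln2 was nearest to Col6a3, a type VI collagen chain (0.226), Dclk1 (0.243) and Aldh1a3, a retinoic acid-forming dehydrogenase (0.315). Efemp2 was nearest to Col27a1, a fibrillar collagen (0.189), the endoplasmic reticulum protein gene Calu (0.194) and Plat, tissue plasminogen activator (0.208). Fbln7 was nearest to Bmp5 (0.182), Tmem45a (0.238) and the interleukin receptor gene Il1r1 (0.254). Hmcn1 was nearest to Akr1b10 (0.0749), Armc6 (0.110) and Exo5 (0.140). These distances are descriptions over 6 arrays in 3 groups and carry no test.

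Genes that fibulins work with in elastic fibres were called between the sorted groups about as often as all genes. Of 18 such genes, 3 were called higher and 0 lower in myofibroblasts than in fibroblasts. Over all genes, 17.2% were called in either direction, 9.22% higher and 8.02% lower. The median difference was 0.79 over the 18 and -0.06 over all genes. The 3 called were Ltbp2, Loxl3 and Fbn1. Ltbp2, a latent TGF-beta binding protein that also binds Fbln5, read 5.17 ± 0.41 (limma adjusted p = 0.00261). The lysyl oxidase family gene Loxl3 read 2.35 ± 0.26 (adjusted p = 0.00546) and the fibrillin gene Fbn1 read 1.53 ± 0.28 (adjusted p = 0.0232). The lowest values in the list, -2.49 for Emilin2 and -1.16 for Ltbp4, did not pass. Against homogenate, 12 of the 18 were higher in myofibroblasts and 10 in fibroblasts, none lower, with medians of 2.81 and 1.98. Of all genes, 11.9% were called higher and 15.0% lower in myofibroblasts than in homogenate, and 8.09% and 11.8% in fibroblasts. In fibroblasts these were led by Fbn1 at 3.32, the microfibril gene Mfap5 at 3.17 and Lox, lysyl oxidase itself, at 3.07 (adjusted p = 0.00123, 0.00112 and 0.00614). In myofibroblasts Ltbp2 at 5.80, Loxl3 at 4.98 and Fbn1 at 4.85 led (adjusted p = 0.000602, 0.000273 and 0.000385).

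**Figure D3:**
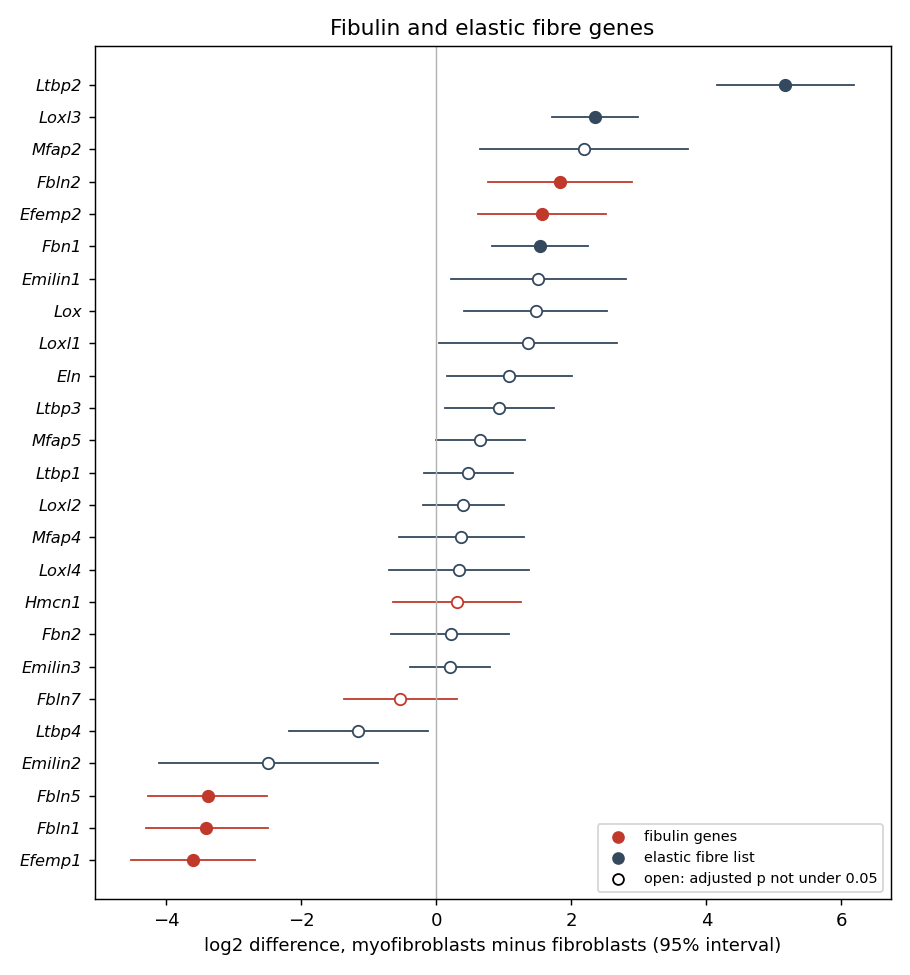
Log2 difference between myofibroblasts and fibroblasts (x axis, with 95% intervals) for the 7 fibulin genes in red and the 18 elastic fibre genes in dark blue, ordered by size and filled where the limma adjusted p was under 0.05. The 3 lowest genes of the plot are the fibulins Efemp1, Fbln1 and Fbln5, and the highest is Ltbp2 at 5.17.

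Other fibulin partners, the fibronectin, proteoglycan, basement membrane and integrin genes, were higher in myofibroblasts than in fibroblasts for 6 of the 18 tested and lower for 0, with a median of 0.14. The shares of all genes were 9.22% higher and 8.02% lower. The most changed were Itga5, a chain of the fibronectin receptor, at 4.01 ± 0.35, the fibronectin gene Fn1 at 2 ± 0.37 (limma adjusted p = 0.0235) and Acan, the aggrecan core protein. Acan was not well above background on either fibroblast array and was tested only through its myofibroblast arrays. Its difference was 2.72 (adjusted p = 0.0306), of which the background level leaves a rise of at least 3.23-fold. Both Acan and Itga5, a gate gene on which the cells were sorted, are among the 6. Fibulin-binding basement membrane genes Nid1 and Lamc1 read -0.23 and -0.15 and did not pass. Against homogenate, 13 of 19 were higher and 1 lower in myofibroblasts, and 9 of 18 higher and 2 lower in fibroblasts. All genes gave 11.9% higher and 15.0% lower in myofibroblasts, and 8.09% and 11.8% in fibroblasts. The versican gene Vcan led the measured rises in both, at 4.80 in myofibroblasts and 3.19 in fibroblasts, followed by the perlecan gene Hspg2 at 4.21 and 3.04. Acan was at least 3.55-fold higher in myofibroblasts than in homogenate, where neither array was well above background. It and the gate gene Itga5 are among the 13. The laminin chain gene Lamc1 was 2.73 higher in fibroblasts. The integrin gene Itga4 was lower in both, at -3.43 and -3.58. Ncan, not well above background on either fibroblast array, was at least 1.78-fold lower in fibroblasts.

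Markers of fibroblast subsets and of other cells were read on the same arrays. The summed signal of 6 alveolar fibroblast markers was 17.8 to 19.8 times the 75th percentile in myofibroblasts, against 227 to 240 times in fibroblasts. Most of the fibroblast sum was Inmt, at 185 and 174 times. Npnt and Tcf21 were not called between the sorted groups (limma adjusted p = 0.759 and 0.114). The 6 adventitial fibroblast markers summed to 79.2 to 89.0 times in myofibroblasts, against 198 to 205 times in fibroblasts. Of these, 5 were called lower in myofibroblasts, against 8.02% of all genes. Among the 5 were the gate gene Ly6a, and Dcn, also a general fibroblast marker. Cd248 went the other way, at 43 and 45.1 times against 27.5 and 23.3 times, and was not called. The 4 myofibroblast markers summed to 293 to 327 times in myofibroblasts, against 18.3 to 28.5 times in fibroblasts. The 5 general fibroblast markers disagreed: Col1a1 and Col1a2 were higher in myofibroblasts than in fibroblasts by 2.54 and 1.53 (limma adjusted p = 0.0181 and 0.0164), Dcn was lower by -2.34 (0.00456), and Col3a1 and Pdgfrb were not called. The 5 smooth muscle markers summed to 61.9 to 75.9 times in myofibroblasts, against 4.44 to 4.65 times in fibroblasts and 11.6 to 14.2 times in homogenate. Most of the myofibroblast sum was Des, at 30.6 and 42.4 times, and Actg2, at 17.8 and 19.4 times. Between the sorted groups 4 were called higher, against 9.22% of all genes, and Smtn was not (limma adjusted p = 0.0602). Against homogenate 4 were called higher in myofibroblasts and Myh11 lower, by -1.29 (0.0316), where 11.9% of all genes were called higher and 15.0% lower. The 6 epithelial markers summed to 11.6 to 17.5 times in myofibroblasts, against 71.8 to 121 times in fibroblasts and 826 to 837 times in homogenate. Most of their signal in sorted cells was that of the club cell gene Scgb1a1, and Cdh1 was not above background in either sorted group. Scgb1a1 and Sftpc were called lower in myofibroblasts than in fibroblasts, by -2.81 and -1.34 (limma adjusted p = 0.00961 and 0.0187), and Ager and Epcam were not called. Mesothelial markers summed to 0.261 to 0.467 times in myofibroblasts, against 0.366 to 0.951 times in fibroblasts. Of these 5 genes, only Wt1 was above background on the fibroblast arrays, at 0.912 and 0.324 times. Msln, Upk3b, Lrrn4 and Krt19 were not above background on either fibroblast array. All 5 were above background in homogenate, at a sum of 6.89 to 7.11 times. The 5 endothelial markers were at or below a sum of 0.337 times in the sorted groups, against 59.4 to 60.5 times in homogenate. The 6 leukocyte markers summed to 1.66 to 3.32 times in myofibroblasts, against 1.23 to 1.51 times in fibroblasts and 112 to 115 times in homogenate. Of the 4 tested between the sorted groups, only Marco was called, higher in myofibroblasts by 3.07 (limma adjusted p = 0.0315). It read 0.458 and 1.84 times there, against 0.111 and 0.107 times in fibroblasts. Lyz2 at 1.42, Cd68 at -0.15 and Cd3e at -0.33 were not called. The 5 pericyte markers disagreed as well: Abcc9 and Kcnj8 were lower in myofibroblasts than in fibroblasts by -3.68 and -2.45 (limma adjusted p = 0.0153 and 0.00961), Cspg4 was higher by 3.26 (0.00239), Notch3 read 0.15 and was not called, and Rgs5 was not tested. The part of these cell types in the fibulin differences was not tested.

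The direction of the 5 called fibulin genes between the sorted groups was the same in all 22 other settings of processing and fit. For Fbln1, Fbln5 and Efemp1 the call held in each of them, with differences from -3.82 to -3.08, from -3.81 to -2.80 and from -4.10 to -3.13. For Fbln2 it held in 12 and for Efemp2 in 6.

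**Figure D4:**
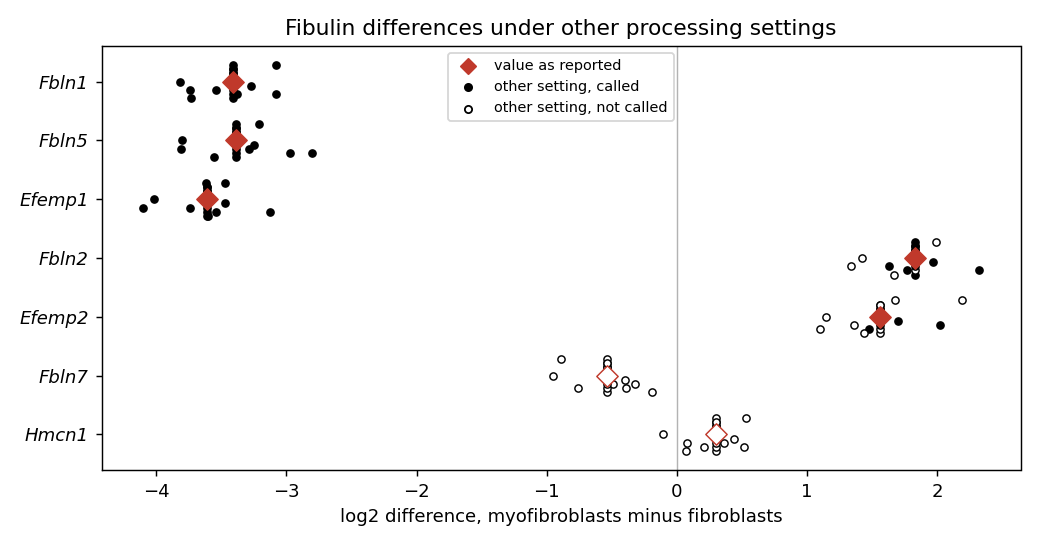
Log2 difference between myofibroblasts and fibroblasts (x axis) of each fibulin gene as reported (red diamonds) and under 22 other settings (circles, shifted vertically for legibility), filled where called. Fbln1, Fbln5 and Efemp1 stay filled, at -2.80 or lower, while Fbln2 and Efemp2 stay above 0 with mixed calls.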

How the data were processed

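Expression was read on 6 one-colour arrays, 2 per group, grouped and numbered as labelled. Deposited per array was a spot intensity made by Agilent Feature Extraction 12.0.3.1, per the file headers and the submitters' processing notes, which is background-subtracted and detrended but not scaled between arrays. The authors' deposited table of normalized intensity values was that signal times 1 constant per array (5.17 to 6.93). How the constants were chosen is not stated there.

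The processed signal was divided by its 75th percentile on the array (224 to 282) and taken to log2. Outlier spots were left out. Of 56605 probes, 32994 were named through RefSeq, and the brightest probe stood for a gene. The 3 groups entered 1 two-sided limma fit (lmFit and eBayes, version 3.58.1, R 4.3.3) with 5.57 total degrees of freedom. A gene was tested where both arrays of either compared group had it above background, and p-values were Benjamini-Hochberg adjusted over all tested genes. The spread was moderated over genes above background on both arrays of any group. That choice was settled after results under 2 other gene sets had been seen, and the call of Efemp2 between the sorted groups depends on it. Alternatives covered the scaling, the filter, the probe rule, the arrays fitted and normexp, run on median spot signals. The fit was tested on simulated data. The members, gene lists and motifs were chosen with earlier results of these data known. Named genes were all 7 fibulins, the gate genes, the 3 most changed called genes each way of 2 partner lists, cell type markers and the 3 genes nearest in profile, of which 1 is not reported here. Emilin2, Ltbp4, Nid1 and Lamc1 between the sorted groups were named after their values were seen. Protein sequences were not used here. Replicate numbers were not used to pair the samples.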

Additional observations from a re-analysis of the deposited data

How the results depend on the processing

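Of 462 values of single fibulin genes under 22 other settings, 405 kept their direction and side of the threshold, 42 kept the direction and lost the call, 11 gained one and 4 turned sign. The turns were in genes not called: Fbln1 between myofibroblasts and homogenate (-0.03 with quantile normalization, -0.20 in the authors' table, and -0.02 to 0.63 with 1 array left out, negative without myofibroblast replicate 2) and Hmcn1 between the sorted groups (-0.11 in the authors' table). The values in the authors' table follow from its constants, which shift the genes together, and the cause of the others was not tested. Between the sorted groups 3 fibulins were called, in place of 5, in the authors' table, without the filter on dim probes, with the 4 arrays of the compared groups alone, with array weights per group and at an adjusted p under 0.01. Between myofibroblasts and homogenate 5 were called, in place of 3, in the authors' table, with 4 arrays and with array weights. With 1 array left out, the fibulins called numbered 3 to 4 between the sorted groups, 2 to 5 between myofibroblasts and homogenate and 2 to 6 between fibroblasts and homogenate, and all genes called 1030 to 5738, 1837 to 7212 and 1544 to 6159. Over all genes, the 2758, 4613 and 3392 called became 1821, 2760 and 1834 where the probe had to be above background in both groups. They became 2015, 4117 and 3060 without the filter on dim probes, and 710, 2073 and 1725 at an adjusted p under 0.01. The first count became 1264 and the second 7391 with 4 arrays, and 1174 and 8060 with array weights. The share of higher ones among called genes was 53.5%, 44.3% and 40.7%. It was 64.6%, 64.9% and 50.7% with median scaling and 25.4%, 20.6% and 36.8% in the authors' table. The median of all genes was -0.06 between the sorted groups, 0.08 with median scaling and -0.47 in the authors' table, and against homogenate in myofibroblasts -0.01, 0.39 and -0.51. Replicate numbers were not used as a pairing. Deviations of same-numbered arrays correlated at 0.07, -0.01 and 0.04, which cannot exclude a small shared effect or one that differs between groups. With a replicate block Efemp2 lost its call between the sorted groups (limma adjusted p = 0.0634) and no other fibulin call changed. The gene set over which the spread was moderated was settled after results under 3 sets were seen: over all named genes the call of Efemp2 between the sorted groups ended (adjusted p = 0.0540), and over the genes of the comparison alone it held. Differences between the arrays of a pair had an SD of 0.58 in myofibroblasts, 0.88 in fibroblasts and 0.39 in homogenate (log2), and the fit gives all groups 1 spread. Every fibulin probe was well above background, but normexp background correction made the differences of Fbln2 and Fbln7 from homogenate smaller by more than 1.5-fold.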
